A study of Mus musculus with 10 samples.

Results

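The transcripts described here come from 10 genes for Eph receptors and ephrins, the cell-surface receptors and ligands of a contact-dependent signalling system. They are the A-type receptors Epha1, Epha2, Epha3, Epha4 and Epha7, the B-type receptors Ephb2 and Ephb3, the A-type ligand Efna1 and the B-type ligands Efnb1 and Efnb2. They were taken by symbol from 22114 protein-coding genes in the count table. The set was chosen by the measured difference of Epha2 between the genotypes, and because the family shapes facial processes. The values of these 10 genes in the 2 genotypes are therefore given as a description, without p-values, and calls among them are only counted beside the share over all genes.

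Total RNA was sequenced from the first pharyngeal arch (PA1), the embryonic bulge that forms the upper and lower jaw, at embryonic stage E10.5. There were 5 wild-type (Grhl2+/+) and 5 Grhl2-/- PA1s, all from male embryos on a C57BL/6 background (the Grhl2 line had been back-crossed to C57BL/6J), without any treatment. Grhl2-/- embryos carry a null allele from heterozygote intercrosses, so the gene, which encodes an epithelial transcription factor, was inactivated in the whole embryo and not in the arch epithelium alone. PA1 was taken whole, and a lower value in such bulk RNA does not separate fewer cells of a type from less RNA per cell.

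Eph receptors are receptor tyrosine kinases that are activated when a neighbouring cell presents an ephrin. A-type ephrins are tethered to the membrane by a lipid anchor and bind mostly A-type receptors, whereas B-type ephrins span the membrane and bind mostly B-type receptors. Ephrins can also signal back into their own cell. In the developing face the family is known for keeping cell populations apart at boundaries, for guiding neural crest cells and for fusion of the palatal shelves.

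Sequencing gave 22188454 to 28801378 counted reads per PA1. Grhl2, the targeted gene, was at 35.6 ± 3.29 CPM (counts relative to the library total after TMM scaling) in wild-type PA1 against 4.53 ± 1.45 CPM in Grhl2-/- PA1 (SD, n = 5 per genotype), a log2 fold change of -3.02 (limma-voom, FDR 2.67e-06). The summed level of 9 first arch mesenchyme genes was 1300 to 1681 CPM in wild-type PA1 against 946 to 1193 CPM in Grhl2-/- PA1, with 3 of 9 lower at FDR 0.01 by limma-voom (1.09% of all genes tested), and that of 10 epithelial genes was 330 to 443 CPM and 172 to 265 CPM, with 6 of 10 lower by the same test. Hox genes of the second and later arches summed to at most 1.73 CPM in any PA1, and Hoxa3 was at or under 3 reads in all 10. Transcripts of 12 sensory neuron genes varied widely within both genotypes, and all 12 log2 fold changes were positive (median 2.10), with 2 of 12 at unadjusted p below 0.05 by limma-voom (28.5% of all genes tested). They summed to 42.1 CPM in wild-type PA1 1-568 and 50.2 CPM in wild-type PA1 1-566, but to 636 to 1071 CPM in the other 3 wild-type and 358 to 1385 CPM in the Grhl2-/- PA1s. These 2 wild-type libraries therefore stand apart, and FDR 0.01 calls among the family, partner and neighbour genes that change without them are given both ways.

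Epha2 and Epha1, the A-type receptors among the 10 with separated genotypes, are introduced by the sequence upstream of their start, because these 2 genes differed in opposite directions. The 250 bases before the RefSeq start of each are printed 5′ to 3′ on the gene's own strand (GRCm38.p6). Capitals mark the hexamer CACCTG or its reverse complement CAGGTG, the core of the E-box bound by ZEB and SNAI repressors. The window of Epha2 lies at chr4:141300971-141301220 on the plus strand and that of Epha1 at chr6:42373269-42373518 on the minus strand.
Epha2: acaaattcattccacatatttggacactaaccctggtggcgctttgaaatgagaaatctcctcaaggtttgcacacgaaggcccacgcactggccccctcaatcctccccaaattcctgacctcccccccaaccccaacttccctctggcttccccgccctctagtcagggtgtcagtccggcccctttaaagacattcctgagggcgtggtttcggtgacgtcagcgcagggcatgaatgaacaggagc
Epha1: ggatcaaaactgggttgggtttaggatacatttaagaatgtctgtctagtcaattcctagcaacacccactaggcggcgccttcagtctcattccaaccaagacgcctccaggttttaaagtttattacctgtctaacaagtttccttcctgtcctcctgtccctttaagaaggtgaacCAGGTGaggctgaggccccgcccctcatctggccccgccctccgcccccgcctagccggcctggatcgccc

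All 10 genes matched a RefSeq start, with 12 windows between them. The hexamer was found in windows of 3 genes, Epha1, Ephb2 and Efnb2, and in 17.2% of all 32851 windows of that length. The grainyhead motif AACCNGTT, searched on both strands, was in no window of the 10 genes and in 1.79% of all windows, and its strict form AACCGGTT, which is a subset of it, was in none of the 10 and in 0.116% of all. The window of Arhgef19, the gene before Epha2, also held neither form. The authors list Arhgef19 as a known GRHL2 target, bound in their chromatin immunoprecipitation (ChIP) of E10.5 PA1. These matches describe letters in 250 bases and do not show where a factor binds or is absent.

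Epha2, a receptor of epithelial cells that binds Efna1, was the most separated of the 10, and higher in Grhl2-/- PA1. Its levels in the wild-type PA1s 1-566, 1-568, 3-588, 5-566 and 8-568 were 14.0, 14.7, 14.0, 12.6 and 14.2 CPM, from 309 to 408 reads. In the Grhl2-/- PA1s 1-588, 1-628, 2-566, 2-568 and 3-604 they were 30.1, 29.2, 29.5, 26.9 and 30.9 CPM, from 754 to 852 reads. Every Grhl2-/- value was above every wild-type value, and the gap between the groups was wider than the range within either. The means were 13.9 ± 0.784 and 29.3 ± 1.49 CPM (SD, n = 5 per genotype), a 2.11-fold difference and a log2 fold change of 1.08 ± 0.0603 (SE of the limma-voom fit).

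Epha2 was also the steadiest of the 10 genes between PA1s of the same genotype. The SD of its log2 CPM was 0.084 in wild-type and 0.075 in Grhl2-/- PA1, and read counting alone gives an SD of 0.076 at the wild-type level. The 2 wild-type PA1s low in sensory neuron transcripts, at 14.0 and 14.7 CPM, were not set apart in Epha2. The gene spans chr4:141301240-141329384 on the plus strand, and no exon of another gene overlaps its exons.

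Epha1, an epithelial receptor of the same class, was lower in Grhl2-/- PA1. The wild-type PA1s, in the order above, were at 9.58, 10.4, 7.98, 7.82 and 9.45 CPM, from 211 to 290 reads. The Grhl2-/- PA1s were at 4.42, 2.91, 2.84, 5.84 and 3.51 CPM, from 75 to 164 reads. The groups did not overlap, although the Grhl2-/- PA1s spread over a range wider, relative to their mean, than the wild-type PA1s. The means were 9.05 ± 1.12 and 3.90 ± 1.25 CPM (SD, n = 5 per genotype). Epha1 was thus 2.37-fold lower, at a log2 fold change of -1.25 ± 0.179 (SE). Without the 2 wild-type PA1s low in sensory neuron transcripts, the log2 fold change of Epha1 was -1.16 and that of Epha2 was 1.09.

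The Grhl2-/- PA1s that kept most Epha1 also kept most Epcam, an epithelial adhesion molecule. The authors list Epcam as a known GRHL2 target, bound in their ChIP of PA1, so its level need not follow epithelial content. PA1s 1-588 and 2-568 had 4.42 and 5.84 CPM of Epha1 and 13.4 and 12.9 CPM of Epcam. The other 3 Grhl2-/- PA1s had 2.84 to 3.51 CPM of Epha1 and 6.96 to 8.52 CPM of Epcam. Remaining Grhl2 reads followed the same order, at 5.56 and 6.33 CPM in those 2 PA1s and 2.80 to 4.48 CPM in the other 3. PA1s 1-588 and 2-568 were also the lowest in sensory neuron transcripts among the Grhl2-/- PA1s, with 358 and 410 CPM. Epcam itself fell from 54.1 ± 6.98 to 9.80 ± 3.14 CPM (SD, n = 5 per genotype), with a log2 fold change of -2.51 (limma-voom, FDR 1.04e-05). Of the 10 epithelial genes, 6 were called lower by limma-voom, and others on the list changed less than Epcam. In wild-type and Grhl2-/- PA1, mean levels were 71.8 and 69.6 CPM for Krt18 and 9.68 and 9.90 CPM for Krt19. They were 73.1 and 61.9 CPM for Trp63 and 36.8 and 28.4 CPM for Krt8. The part of epithelial content in the level of Epha1 was not tested. Epha1 lies at chr6:42358487-42373268 on the minus strand, and its exons share 236 bases with those of Zyx on the opposite strand. The kit was stranded and the name of the deposited table reads as reverse-strand counting, under which a read from these 236 bases counts for 1 strand only, but the setting is not stated elsewhere. Zyx, which encodes a focal adhesion protein, was at 63.6 ± 5.28 and 68.2 ± 7.27 CPM with overlapping groups (log2 fold change 0.10, limma-voom FDR 0.429).

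Per exon length, Epha2 and Epha1 were close in wild-type PA1 and far apart in Grhl2-/- PA1. In RPKM, which is CPM divided by the exon length in kilobases, the ratio of Epha2 to Epha1 was 1.30 (range 1.18 to 1.48) in wild-type and 6.83 (3.87 to 8.73) in Grhl2-/- PA1. Of the summed RPKM of the 9 A-type receptors, Epha2 made up 5.73% ± 0.909 in wild-type and 12.7% ± 1.73 in Grhl2-/- PA1 (SD, n = 5). Epha1 made up 4.42% ± 0.660 and 2.01% ± 0.640. The sum itself was 52.8 ± 8.03 RPKM in wild-type and 49.8 ± 5.25 RPKM in Grhl2-/- PA1, with overlapping ranges. The summed RPKM also overlapped for the 5 B-type receptors (83.6 ± 5.08 and 82.7 ± 1.98), the 5 A-type ephrins (77.6 ± 3.23 and 73.6 ± 0.582) and the 3 B-type ephrins (50.7 ± 3.59 and 56.6 ± 4.69).

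**Figure D1:**
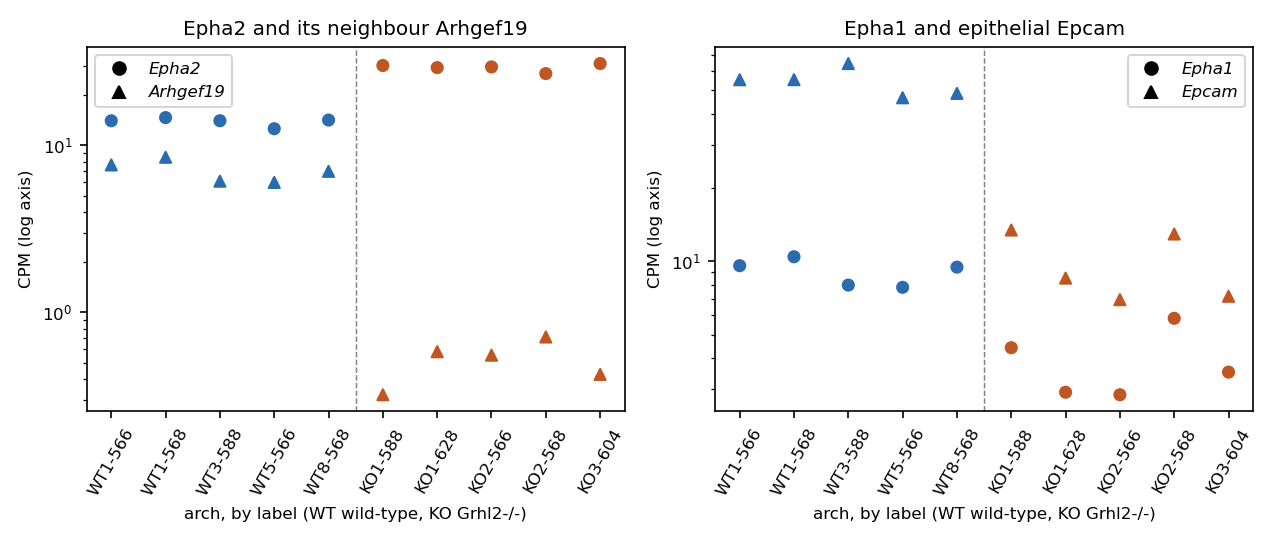
Level of Epha2 with its chromosomal neighbour Arhgef19 (left) and of Epha1 with epithelial Epcam (right) in each PA1, in CPM on a log axis, blue for wild-type and orange for Grhl2-/-. Epha2 is higher and Arhgef19 lower in all 5 Grhl2-/- PA1s, and the Grhl2-/- PA1s 1-588 and 2-568 are highest in both Epha1 and Epcam.

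Epha3, Epha4 and Epha7, A-type receptors known from repulsive guidance of axons and neural crest cells, had overlapping genotypes. Epha3 was at 73.5 ± 13.9 CPM in wild-type PA1 against 68.0 ± 10.6 CPM in Grhl2-/- PA1 (log2 fold change -0.10 ± 0.124, SE). Epha4, which also binds B-type ephrins, was at 223 ± 38.9 and 192 ± 28.6 CPM (-0.21 ± 0.122). Epha7 was at 107 ± 16.6 and 97.0 ± 9.82 CPM (-0.13 ± 0.105; SD, n = 5 throughout). Without the 2 wild-type PA1s low in sensory neuron transcripts, the log2 fold changes were -0.01, -0.10 and -0.03. The SD of log2 CPM between wild-type PA1s was 0.25 for Epha3, 0.24 for Epha4 and 0.23 for Epha7, beside 0.084 for Epha2.

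In all 3, the PA1s with the highest values in each genotype shared a number in their labels. The remaining wild-type PA1s ranked 1-568, 8-568 and 3-588 in all 3 receptors. Among the remaining Grhl2-/- PA1s the order differed between the receptors. In wild-type PA1, Epha3 was at 97.6 and 73.0 CPM in PA1s 1-566 and 5-566 and at 63.0 to 67.6 CPM in the other 3, and in Grhl2-/- PA1 it was at 86.8 CPM in PA1 2-566 and 61.4 to 65.2 CPM in the other 4. Epha4 was at 286 and 225 CPM against 185 to 223 CPM in wild-type, and at 228 against 162 to 216 CPM in Grhl2-/- PA1. Epha7 was at 128 and 114 CPM against 85.8 to 112 CPM, and at 109 against 86.0 to 103 CPM. Efnb1 was also highest in the PA1s labelled 566, with 68.7 and 66.7 CPM against 57.2 to 59.6 CPM in wild-type. In Grhl2-/- PA1 it was at 71.9 against 55.1 to 59.7 CPM. Thus in 4 of the 10 genes the 3 PA1s labelled 566 were above all others of their genotype, as they were in 5.84% of all genes tested. The label 566 was singled out after the values were seen, and the labels do not give the meaning of the number.

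**Figure D2:**
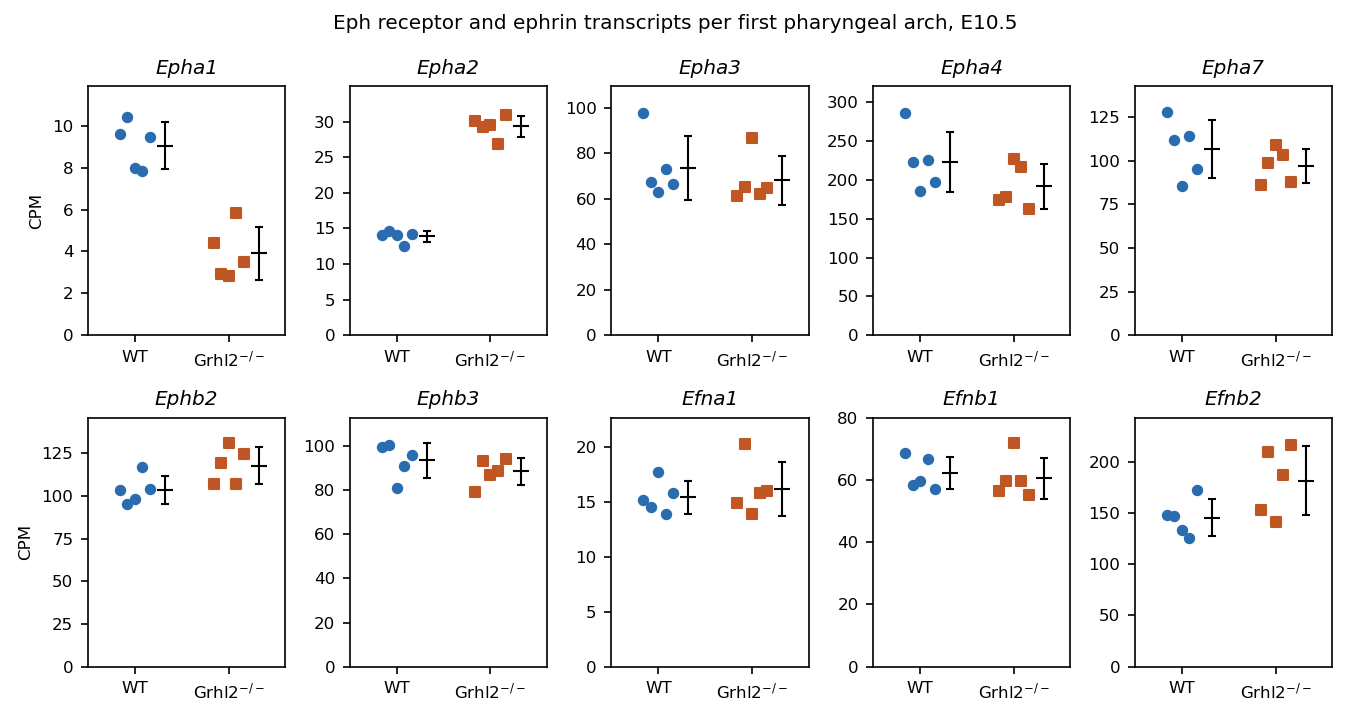
Level of each of the 10 genes in CPM in 5 wild-type (blue circles) and 5 Grhl2-/- (orange squares) PA1s, with the mean and SD beside the points. Epha1 and Epha2 separate the genotypes and the other 8 genes overlap.

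The B-type receptors Ephb2 and Ephb3, which act together in closure of the palate, also overlapped. Ephb2 was at 103.5 ± 8.30 CPM in wild-type (95.2 to 117) and 117.8 ± 10.6 CPM in Grhl2-/- PA1 (107 to 131), a log2 fold change of 0.18 ± 0.0703 (SE). Ephb3 was at 93.4 ± 8.01 CPM and 88.4 ± 5.98 CPM (-0.08 ± 0.0670). Only wild-type PA1 5-566 reached into the Grhl2-/- range of Ephb2, whereas for Ephb3 the wild-type range of 80.7 to 100.3 CPM covered 4 of the 5 Grhl2-/- PA1s, which spanned 79.2 to 94.1 CPM.

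Among the ligands, Efna1 was at 15.4 ± 1.47 CPM in wild-type PA1 against 16.2 ± 2.45 CPM in Grhl2-/- PA1 (log2 fold change 0.06 ± 0.103, SE), so the ligand most tied to Epha2 overlapped while the receptor separated. Efnb1, the X-linked gene mutated in human craniofrontonasal syndrome, was at 62.1 ± 5.17 and 60.6 ± 6.65 CPM (-0.04 ± 0.0775). Efnb2, a ligand of arterial endothelium and neural crest paths, was at 145 ± 18.0 and 181 ± 33.5 CPM (0.31 ± 0.124). In wild-type PA1 Efnb2 had 147.9, 147.4, 133, 126 and 173 CPM, and in Grhl2-/- PA1 152, 210, 142, 187 and 216 CPM. Grhl2-/- PA1s 1-628, 2-568 and 3-604 were above every wild-type PA1, and PA1s 1-588 and 2-566 lay within the wild-type range. Summed over 8 endothelial genes the level was 362 to 411 CPM in wild-type PA1 against 402 to 469 CPM in Grhl2-/- PA1, and its part in the level of Efnb2 was not tested.

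Across the 10 genes, 4 log2 fold changes were positive and 6 negative, with a median of -0.06, beside 0.01 over all 14561 genes tested. The genotypes did not overlap in 2 of the 10 (8.88% of all genes tested). The same 2 were past FDR 0.01 by limma-voom (1.96% of all genes tested), Epha2 in the higher (0.879%) and Epha1 in the lower direction (1.09%), and nothing is read from these counts because the contrast chose the genes. Past FDR 0.01 without the 2 wild-type PA1s low in sensory neuron transcripts was Epha2 but not Epha1. Epha2, at 1.08, and Epha1, at -1.25, were far from the next values, 0.31 for Efnb2 and -0.21 for Epha4.

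In wild-type PA1 the order of levels per exon length was Epha4, Efnb2, Efnb1, Ephb3, Epha7, Epha3, Efna1, Ephb2, Epha2 and Epha1. Epha4 had 27.7 ± 4.83 RPKM, Efnb2 21.2 ± 2.62, Efnb1 18.0 ± 1.50 and Ephb3 14.1 ± 1.21 RPKM (SD, n = 5). Epha7 had 10.8 ± 1.68 RPKM, and Epha3, Efna1 and Ephb2 lay between 8.21 and 8.46 RPKM. Epha2 had 2.97 ± 0.168 and Epha1 2.30 ± 0.285 RPKM. Of the 9 pairs of neighbours in this order, 6 overlapped over the 5 PA1s, and the pairs that did not were Efnb1 and Ephb3, Ephb2 and Epha2, and Epha2 and Epha1. With the length of the longest transcript in place of all exons, 4 genes changed place and Epha2 and Epha1 remained last. In Grhl2-/- PA1, Epha2 was at 6.27 ± 0.320 RPKM, still under the 8.47 to 10.4 RPKM of Ephb2 there.

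**Figure D3:**
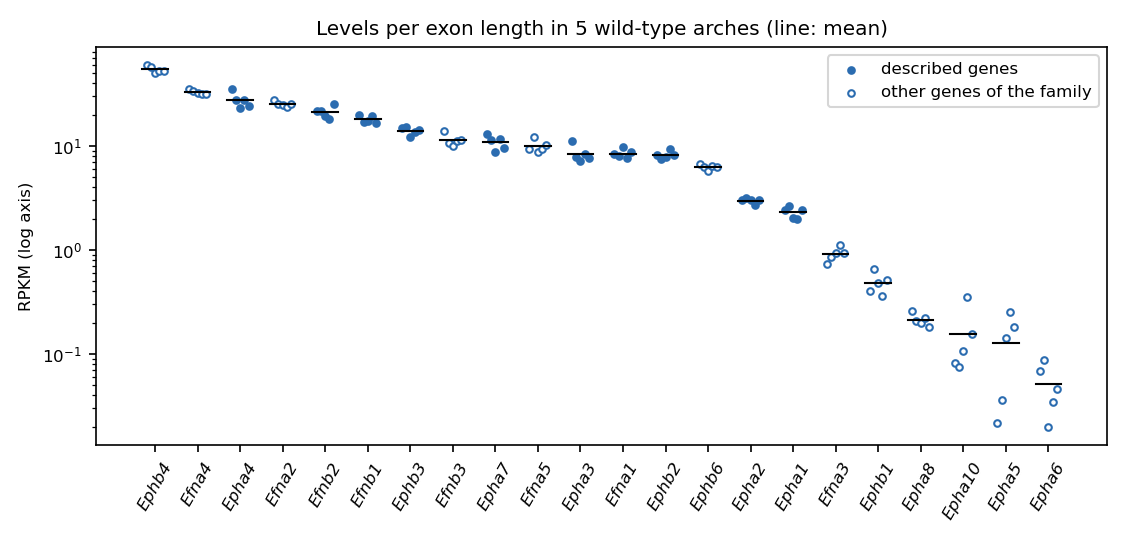
Level per exon length of all 22 Eph and ephrin genes in 5 wild-type PA1s, in RPKM on a log axis, with a line at the mean and filled points for the 10 genes described. Epha2 at 2.97 RPKM and Epha1 at 2.30 RPKM are the lowest of the 10, and Ephb4 is the highest of the family.

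The 12 other genes of the family were tested, since the rule for the 10 did not name them. The 10 were picked from the family with earlier results of these data known, so the 12 are not an independent set. By limma-voom at FDR 0.01, 2 of 12 rose in Grhl2-/- PA1 (0.879% of all genes tested), 0 fell (1.09%) and 10 did not pass (6 of 12 were at unadjusted p below 0.05, as were 28.5% of all genes tested), with a median log2 fold change of 0.16 beside 0.01 over all genes. Of lower genes, edgeR also gave 0 and DESeq2 gave Efna2. At FDR 0.05, which 7.71% of all genes tested passed, 4 of 12 did. Epha8, a receptor known from the midbrain, rose from 27, 27, 27, 29 and 21 reads in wild-type to 85, 63, 81, 90 and 48 reads in Grhl2-/- PA1. The means were 1.01 ± 0.142 and 2.67 ± 0.537 CPM (SD, n = 5 per genotype), a log2 fold change of 1.39 ± 0.196 (SE, limma-voom FDR 0.00200). All 5 Grhl2-/- PA1s were above all 5 wild-type PA1s, at a level that was low in both. Summed over 12 neuroepithelial genes, of which Olig2 and En1 were at or under the floor of 3 reads throughout, the level was 7.63 to 19.6 CPM in wild-type PA1 against a lowest of 10.9, a median of 17.6 and a highest of 62.5 CPM in Grhl2-/- PA1, the highest coming from PA1 1-588 alone. Of the 7 with enough reads, 6 had positive log2 fold changes (median 1.58) and 3 were at FDR below 0.05 by limma-voom, and their part in the level of Epha8 was not tested. Ephb6, a receptor whose kinase domain is inactive, rose from 23.7 ± 1.22 to 28.4 ± 0.499 CPM, a log2 fold change of 0.27 ± 0.0472 (limma-voom FDR 0.00791), again without overlap. Ephb6 passed in 0 of 10 fits with a PA1 omitted, and without the 2 wild-type PA1s low in sensory neuron transcripts neither gene passed (limma-voom FDR 0.0203 for Epha8, log2 fold change 1.44, and 0.0456 for Ephb6, log2 fold change 0.28). Over 21 alternatives these were the highest FDRs of the pair, and the lowest were 1.05e-07 for Epha8 and 0.000172 for Ephb6.

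The 3 most abundant of the 12, Ephb4, Efna2 and Efna4, did not pass. Ephb4, the receptor of venous endothelium for Efnb2, was at 253 ± 17.9 CPM in wild-type PA1 against 241 ± 6.71 CPM in Grhl2-/- PA1 (log2 fold change -0.06, limma-voom FDR 0.391). Efna2 was at 53.9 ± 2.83 and 47.3 ± 1.48 CPM without overlap (-0.18, FDR 0.0324, or 0.154 without the 2 wild-type PA1s low in sensory neuron transcripts) and Efna4 at 52.8 ± 2.90 and 48.1 ± 3.32 CPM (-0.13, FDR 0.155). Ephb4, at 54.5 RPKM, was above Epha4 per exon length, and it made up 65.2% of the summed RPKM of the 5 B-type receptors in wild-type PA1. Epha6 was near the floor, with 3 to 13 reads in every PA1. Exons of Efna3, Efna4, Epha6, Epha10, Ephb1 and Ephb4 overlap those of a gene on the opposite strand, as in Epha1.

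**Figure D4:**
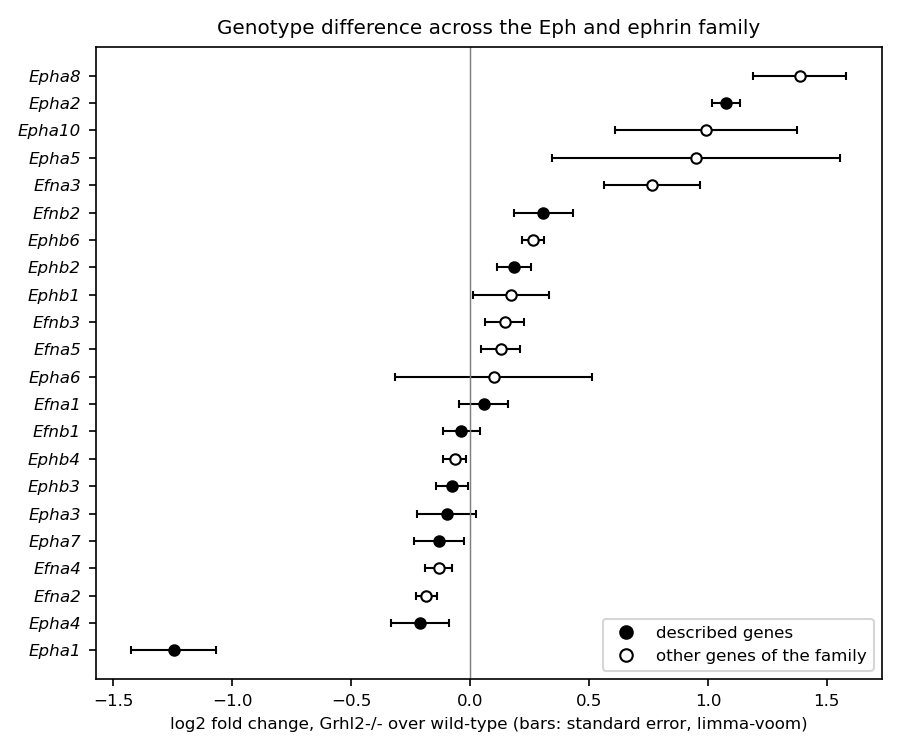
Log2 fold change of Grhl2-/- over wild-type PA1 with its SE for all 22 Eph and ephrin genes, filled for the 10 described and open for the other 12. Epha2 at 1.08 and Epha8 at 1.39 are at the upper end and Epha1 at -1.25 is at the lower end.

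Epha5, Epha10 and Efna3, all of low level, were lowest in the 2 wild-type PA1s with few sensory neuron transcripts. Epha5 was at 0.363 and 0.611 CPM in these 2 and at 2.37 to 4.22 CPM in the other 3 wild-type PA1s, with 1.28 to 5.00 CPM in Grhl2-/- PA1. Epha10 was at 0.590 and 0.539 CPM, against 0.767 to 2.54 CPM and 1.28 to 2.87 CPM. Efna3 was at 1.77 and 2.09 CPM, against 2.27 to 2.69 CPM and 2.50 to 5.27 CPM. None of the 3 passed FDR 0.01 by limma-voom (FDR 0.319 for Epha5, 0.120 for Epha10 and 0.0421 for Efna3). Without these 2 PA1s the log2 fold change of Epha5 went from 0.95 to -0.08, that of Epha10 from 0.99 to 0.52 and that of Efna3 from 0.77 to 0.63 (FDR 0.218). Epha8 did not share this order, with 1.23 and 0.971 CPM in these 2 PA1s and 0.848 to 1.05 CPM in the other 3. The neuron transcripts' part in these levels was not tested.

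**Figure D5:**
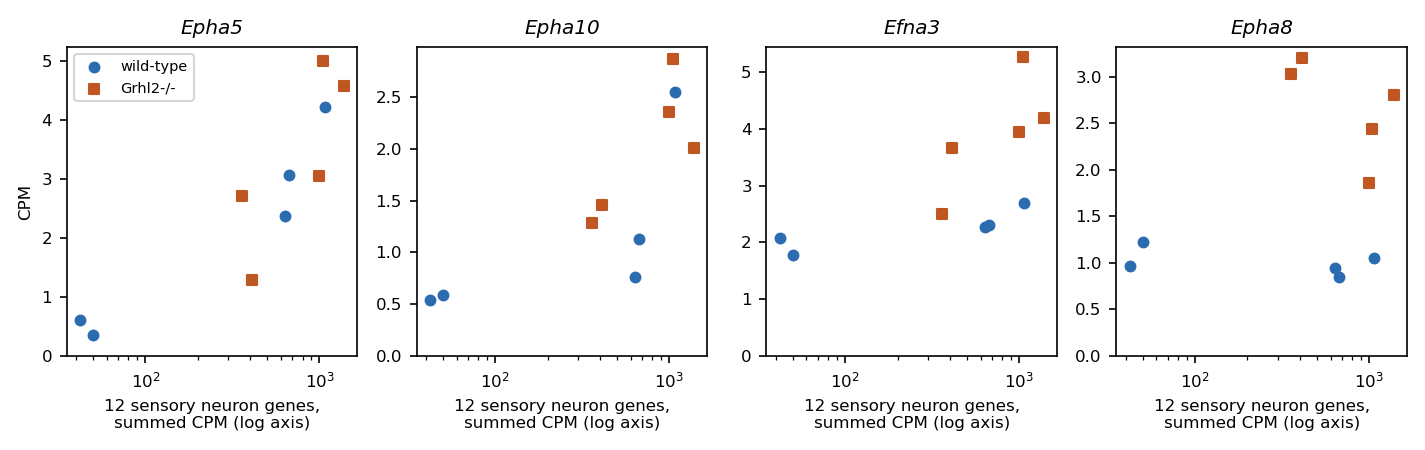
Level of Epha5, Epha10, Efna3 and Epha8 in CPM against the summed CPM of 12 sensory neuron genes (log axis) in each PA1, blue circles for wild-type and orange squares for Grhl2-/-. The 2 wild-type PA1s at 42.1 and 50.2 CPM on the horizontal axis are lowest in Epha5, Epha10 and Efna3 but not in Epha8.

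Transcripts of 48 known signalling partners of the receptors and ephrins were all tested. Arhgef19, of a group named for exchange factors that bind Eph receptors, was not on this list. It was lower at FDR 0.01 by limma-voom and is described with the neighbours below. By limma-voom, 0 of 48 passed FDR 0.01 (1.96% of all genes tested), 11 were at unadjusted p below 0.05, or 5 without the 2 wild-type PA1s low in sensory neuron transcripts (28.5% of all genes tested with all PA1s), and the median log2 fold change was 0.03. By edgeR 0 of 48 passed (2.08% of all genes tested) and by DESeq2 2 did (7.37% of all genes tested). Of 24 adaptors and enzymes that bind the receptor, 13 had a positive and 11 a negative log2 fold change. Of 8 partners of B-type ephrins, 7 were positive and 1 negative. The 2 that passed with DESeq2, named after their values were seen, were Grip1 and Grb7. Grip1, a scaffold that binds the tail of B-type ephrins, was at 35.7 ± 3.27 and 45.0 ± 2.63 CPM (log2 fold change 0.33, limma-voom FDR 0.0154). Grb7, an adaptor of receptor tyrosine kinases, was at 10.8 ± 2.18 and 5.35 ± 1.95 CPM (-1.09, limma-voom FDR 0.0272).

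The nearest protein-coding genes on either side of the 10, before and after by coordinate, were compared, since the rule did not name them. Genes that overlap a member, such as Zyx at Epha1, were passed over. The distance to the member ran from 558 to 2996597 bases. Of 20 such genes 15 had enough reads, and 1 of these passed FDR 0.01 by limma-voom (1.96% of all genes tested). It was Arhgef19, which lies 43675 bases before Epha2 at chr4:141239499-141257564, on the same strand. Arhgef19 belongs to the ephexin group, named for exchange factors that bind Eph receptors. The authors list it as a known GRHL2 target, bound in their ChIP of E10.5 PA1. It fell from 7.63, 8.48, 6.10, 6.00 and 6.99 CPM in wild-type to 0.321, 0.581, 0.554, 0.712 and 0.425 CPM in Grhl2-/- PA1, or from 165 to 236 reads down to 9 to 20. The means were 7.04 ± 1.05 and 0.518 ± 0.150 CPM (SD, n = 5 per genotype), with a log2 fold change of -3.75 ± 0.243 (SE, limma-voom FDR 6.77e-06). Epha2 and the gene before it thus differed in opposite directions, and the groups overlapped in neither. On the other side, 38835 bases after Epha2, Fam131c had 0 to 8 reads in wild-type and 2 to 15 reads in Grhl2-/- PA1 (FDR 0.259).

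Vps8, a subunit of an endosomal tethering complex and 199812 bases after Ephb3, was at 27.8 ± 2.35 and 34.5 ± 1.41 CPM (log2 fold change 0.31, limma-voom FDR 0.0127). Map3k7, a kinase 2996597 bases after Epha7, was at 208 ± 4.14 and 191 ± 7.98 CPM (-0.12, FDR 0.0585). Fam131b, before Epha1, was at 6.31 ± 1.36 and 9.49 ± 1.44 CPM (0.60, FDR 0.0394), and Slc50a1, a sugar transporter before Efna1, at 8.73 ± 1.02 and 10.8 ± 0.668 CPM (0.33, FDR 0.0422). Efna3, which follows Efna1 on the chromosome, is given above. The other 8 tested, Slc4a3, Pax3, Stard8, Pja1, Manea, C1qb, Gm1840 and Pros1, had log2 fold changes from -0.04 to 0.69 and did not pass. Lactbl1, Tas2r143, 4921522P10Rik, Teddm3 and Csnka2ip had at most 2 reads in any PA1.

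The profiles most like that of Epha2 over the 10 PA1s were found among 12691 genes with a mean of at least 1 CPM, by the root mean square (RMS) difference of mean-centred log2 CPM. The 5 nearest were Col4a6 (0.163), a collagen chain of basement membranes, Igfbp3 (0.174), which binds insulin-like growth factors, Plch1 (0.187), a phospholipase, Nkx2-3 (0.191), a homeobox factor, and Gpm6a (0.199), a membrane glycoprotein of neurons. Each had non-overlapping groups and was 1.91-fold to 2.08-fold higher in Grhl2-/- PA1, beside 2.11-fold for Epha2. All values come from the same 10 libraries, and the shared genotype difference enters the measure of likeness.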

How the data were processed

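RNA from 5 wild-type and 5 Grhl2-/- PA1s was sequenced by the authors with a ribosomal-depletion, stranded kit as 50-base single reads. They aligned reads to GRCm38 with STAR and deposited featureCounts counts for 22114 protein-coding genes, without normalization. Versions of both and the annotation release are not given in the sources used here, the strand setting only through the table's name, which reads as reverse-strand, and the submitters' processing notes list edgeR 3.18.1 and limma 3.32.7. A second deposited table holds the authors' own comparison and was not used.

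The 14561 genes that reached 10 counts in any PA1 were normalized by TMM and fitted with limma-voom (limma 3.58.1, edgeR 4.0.16, R 4.3.3), genotype being the only term, with Benjamini-Hochberg FDR over all genes and calls below 0.01. CPM is TMM-normalized, log2 CPM used a prior count of 0.5, and RPKM divides CPM by summed exon length in GENCODE mouse release 21. A floor of 3 reads is 0.104 to 0.135 CPM, for counting error only. Libraries were compared pairwise within genotype and none were duplicates. P-values set the genotype difference against the spread between these PA1s, which limma-voom moderates across genes. Members of the family, lists, neighbours and tests were chosen with earlier results of these data known. Genes named were the 10, those called and the 3 most abundant of the 12 others, called partners, neighbours, Grhl2 and the 5 profiles nearest Epha2, with markers where a list is described and Zyx, Epcam, Epha5, Epha6, Epha10, Grip1 and Grb7 added after their values were seen. As alternatives, DESeq2 1.42.0, edgeR's quasi-likelihood test, other scalings, filters and thresholds, quality weights, a replicate block, a sensory neuron covariate and leaving out PA1s were tried. The remaining partners, a further role group of the list of 48, are not reported here by role.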

Additional observations from a re-analysis of the deposited data

Results flagged for a closer look

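In 46 groups of 5 PA1s, 2 held a PA1 set far from the other 4, where chance gives about 2.3. Epha2 in wild-type PA1 was lowest in 5-566, at 12.6 CPM with the next at 14.0 CPM, a gap of 0.715 of the group's range in log2 CPM and just past Dixon's critical value. Epha3 in Grhl2-/- PA1 was highest in 2-566, at 86.8 CPM with the next at 65.2 CPM, a gap of 0.827 of the range.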

How the results depend on the processing

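All 210 values of the 10 genes under 21 alternatives moved by less than 1 SD between PA1s, with log2 fold changes of 1.04 to 1.11 for Epha2 and -1.41 to -1.04 for Epha1. Of the 10 genes, 2 were called, 1 (Epha2) with the label number as a replicate block and 1 without the 2 wild-type PA1s low in sensory neuron transcripts, a choice made after seeing the data, and 2 to 2 when each PA1 was left out. Of the 12 others, 2 were called, 4 with DESeq2 or at FDR 0.05, 1 with the block, 1 with the sensory neuron covariate, 0 without those 2 PA1s and 1 to 2 when each PA1 was left out. The fit kept Epha8 in each of the latter and Ephb6 in 0 of 10. Of 48 partners, 0 were called, 2 with DESeq2 or at FDR 0.05, 1 with quality weights and 0 to 0 when each PA1 was left out. Of 15 neighbours, 1 was called, 5 with DESeq2 or at FDR 0.05 and 1 to 2 when each PA1 was left out, Efna3 being added without Grhl2-/- PA1 1-588 and Vps8 without wild-type PA1 5-566. Arhgef19 was called in all 21, at log2 fold changes of -3.87 to -3.60. Overlapping pairs in the order of wild-type levels numbered 6, and 5 to 6 when each PA1 was left out. Over all genes, 286 were called, 1073 with DESeq2, 303 with edgeR, 129 with the block, 179 with the covariate and 109 without the 2 PA1s. Other scalings moved the median log2 fold change of all genes by at most 0.02. Same-numbered PA1s of opposite genotype had a mean correlation of deviations of 0.0883 over 5 pairs (-0.364 to 0.540), and -0.0191 over 20 pairs of different numbers, so the numbers were not shown to pair PA1s. Low read numbers limit the values of Epha6 (3 to 13 reads) and Fam131c (0 to 15 reads). The causes of these differences were not tested.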
